A study of Homo sapiens with 45 samples.

Results

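The 38 genes described here are the unfolded protein response and ATF4 stress genes of a breast cancer RNA-seq series, read in 45 libraries of 3 estrogen receptor-positive cell lines. They were selected by name from the deposited counts table, where all 38 had a row. They were grouped by role into 18 genes of endoplasmic reticulum protein folding and clearance (the folding arm, with HSPA5 as its type), 4 sensors and factors, and 16 genes of the ATF4 amino acid and stress arm (with ASNS as its type). MM134 (MDA MB 134VI) and MM330 (MDA MB 330) are lobular carcinoma lines, and HCC1428 is a ductal carcinoma line. All cells were kept without hormone for 3 days in charcoal-stripped serum, transfected with an siRNA, treated 24 h later, and collected 24 h after that. Each line had 5 groups of 3 libraries. Groups siER_E2, siFOXA1_E2 and siMDC1_E2 received siRNA against the estrogen receptor gene ESR1, FOXA1 or MDC1 and then 100 pM estradiol (E2). Group siNT_E2 received a non-targeting siRNA and 100 pM E2, and group siNT received the non-targeting siRNA and 0.01% ethanol as vehicle. No knockdown was made without E2, and the ductal type was represented by a single line. The labels do not say if the 3 libraries of a group were separate cultures, so p-values measure the spread between these libraries.

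The unfolded protein response is the reaction of a cell to misfolded proteins in the endoplasmic reticulum. The kinases PERK (gene EIF2AK3) and IRE1 (gene ERN1) and the membrane-bound factor ATF6 sense the load. ATF6 and the spliced form of XBP1 raise the chaperones and disulfide isomerases, while PERK slows protein synthesis and favours translation of ATF4, which raises amino acid transporters and amino acid synthesis enzymes. ATF4 is also reached from amino acid shortage, without a folding load, so the arms can move apart. Estrogen receptor-positive breast cells are secretory epithelium, and estradiol is known to engage part of this response in them. FOXA1 is a factor that opens chromatin for the estrogen receptor, and MDC1 is a scaffold protein of DNA damage signalling.

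Short promoter elements are the textbook binding letters of the factors of each arm, and they are shown here to mark which members hold them close to the start. RefSeq promoter windows (GRCh38.p14, 250 bases before to 50 after each annotated start) were found for 34 of the 38 genes, with none for PDIA3, PSPH, SHMT2 and SLC7A11. Both strands were searched for the endoplasmic reticulum stress element ERSE (CCAAT, 9 unspecified bases, then CCACG) and for its variant ERSE-II (ATTGG, 1 unspecified base, then CCACG). They were also searched for the ATF4 composite element CARE (TGATG, 1 unspecified base, AA and 1 more unspecified base) and for a perfect estrogen response element (GGTCA, 3 unspecified bases, then TGACC). Capitals mark the matched letters and positions count from the start base as 0. The 250 bases before the HSPA5 start (chr9:125241344-125241593, minus strand) and before the HERPUD1 start (chr16:56931892-56932141, plus strand) are given whole, since these genes moved in opposite directions with estradiol.
HSPA5, ERSE: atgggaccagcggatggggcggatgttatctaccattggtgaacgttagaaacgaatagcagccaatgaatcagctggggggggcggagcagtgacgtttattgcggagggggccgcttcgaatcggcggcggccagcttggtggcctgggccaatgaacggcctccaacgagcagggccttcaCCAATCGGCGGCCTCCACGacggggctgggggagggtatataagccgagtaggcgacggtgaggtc
HERPUD1, CARE then ERSE-II: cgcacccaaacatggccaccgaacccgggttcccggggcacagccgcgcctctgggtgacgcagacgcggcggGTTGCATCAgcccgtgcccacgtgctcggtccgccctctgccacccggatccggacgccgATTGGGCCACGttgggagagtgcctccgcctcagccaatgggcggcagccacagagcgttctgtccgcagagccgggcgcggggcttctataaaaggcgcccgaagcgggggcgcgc
The HERPUD1 CARE lies on the opposite strand, so it reads reversed and complemented there. The other matched sites are shown on the strand of the motif with 5 flanking bases.
HSP90B1 ERSE, upstream copy at -194 to -176: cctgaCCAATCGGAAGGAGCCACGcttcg
HSP90B1 ERSE, downstream copy at -89 to -71: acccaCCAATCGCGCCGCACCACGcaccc
CALR ERSE at -225 to -207: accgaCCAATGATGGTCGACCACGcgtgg
CANX ERSE at -151 to -133: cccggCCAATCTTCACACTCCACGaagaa
PDIA6 ERSE at -86 to -68: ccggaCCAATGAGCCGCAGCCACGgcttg
CRELD2 ERSE at -80 to -62: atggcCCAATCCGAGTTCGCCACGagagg
SDF2L1 ERSE-II at -188 to -178: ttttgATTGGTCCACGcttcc
HYOU1 ERSE-II at -79 to -69: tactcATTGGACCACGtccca
HYOU1 ERSE-II, upstream copy at -185 to -175: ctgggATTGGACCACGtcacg
ASNS CARE at -68 to -60: aggcaTGATGAAACttccc
CHAC1 CARE at -210 to -202: aggagTGATGCAACggcag
ATF3 CARE at -191 to -183: caggaTGATGGAAGgctgt
SLC3A2 CARE at 36 to 44: ggagcTGATGTAAGgagtc
An ERSE was present in 6 and an ERSE-II in 3 of the 17 folding genes with a window, against 0.0916% and 0.0696% of all 27305 genes with a window. CARE was present in 4 of the 13 ATF4-arm genes with a window and in HERPUD1, against 4.45% of all genes. The estrogen response element was in 0 of the 34 members and in 0.0732% of all genes. ERSE and ERSE-II were each in 0 of the 13 ATF4-arm genes and 0 of the 4 sensors and factors. The elements did not cover all of either arm. In these windows 8 of the 17 folding genes held neither ERSE form, and 9 of the 13 ATF4-arm genes held no CARE. No match of one motif overlapped a match of another. CANX has several annotated starts, and its match is given in 1 of its windows. A match is a description of these letters and not evidence of binding. The stress elements were chosen as textbook letters of these arms, so the shares beside them are no test.

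The libraries held 21 M to 36.7 M gene counts (M, 1e6 counts). Each knockdown was seen in its own gene in every line: the log2 fold change against siNT_E2 was -3.12 in MM134, -3.68 in MM330 and -1.004 in HCC1428 for ESR1 after siER, -1.97 in MM134, -1.86 in MM330 and -1.64 in HCC1428 for FOXA1 after siFOXA1, and -2.13 in MM134, -2.30 in MM330 and -1.94 in HCC1428 for MDC1 after siMDC1. The ESR1 decrease in HCC1428 was the smallest of these. ESR1 was also lower in every line after siFOXA1 (-2.29 in MM134, -0.45 in MM330 and -0.16 in HCC1428) and after siMDC1 (-2.16 in MM134, -0.96 in MM330 and -0.12 in HCC1428), each called. Of the luminal epithelial markers, 7 of 7 were at 10 CPM or more in every line, while 4 of 5 fibroblast and 5 of 5 immune markers had medians below 1 CPM. A group of 11 libraries carried 0.337 to 0.494% of their counts on processed pseudogenes, against 0.123 to 0.159% in the other 34. These 11 were kept. Without them 3 member calls ended in MM134, 15 in MM330 and 11 in HCC1428 over the 4 comparisons of each line, where HCC1428 siNT and siER_E2 keep 1 library each. These calls are named with their comparison. All values below are counts per 1e6 counts (CPM) scaled by TMM factors within a line. Log2 fold changes are given ± SE, with Benjamini-Hochberg adjusted p-values over all genes from edgeR's quasi-likelihood test, and genes with an adjusted p under 0.05 are called.

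Before estradiol, in siNT, the lines had near-equal levels of some core chaperones but very unequal levels of several amino acid genes. In CPM, HSPA5 averaged 277 ± 12.03 in MM134, 294 ± 13.7 in MM330 and 319 ± 6.87 in HCC1428 (SD, n = 3 each). CALR, PDIA6 and HYOU1 also lay within 1.15-fold between the highest and lowest line. Per kilobase of exon, CALR (calreticulin, a lectin chaperone) had the highest level of all members in every line, at 218 CPM per kb in MM134, 199 in MM330 and 218 in HCC1428. PDIA3 was next in MM134 (85.8 CPM per kb) and MM330 (116), and HSP90B1 in HCC1428 (110.3). ATF4 had the fourth highest level in MM330, at 109 CPM per kb.

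The serine synthesis enzymes PHGDH and PSAT1 were nearly absent from MM134. PHGDH had 0.368, 0.0844 and 0.194 CPM in the 3 MM134 libraries, 48.0, 50.7 and 53.0 in MM330 and 90.6, 97.2 and 97.4 in HCC1428. PSAT1 had 0, 0.338 and 0.0776 CPM in the 3 MM134 libraries, 22.7, 21.52 and 21.9 in MM330 and 4.80, 3.73 and 4.14 in HCC1428, and it was too low to be tested in MM134. No MM134 library came within range of the other lines for either gene. VLDLR, a lipoprotein receptor raised by ATF4, was the reverse case, with 0.0666, 0.0710 and 0.0672 CPM in HCC1428 against means of 6.79 in MM134 and 9.32 in MM330. TRIB3 was 5.98-fold higher in MM330 than in HCC1428, and SLC7A5 was 6.39-fold higher in MM330 than in MM134. HERPUD1 was 4.31-fold higher in HCC1428 than in MM134, and DNAJB9 5.01-fold higher in MM134 than in MM330. These levels are a description, with no test between lines.

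**Figure D1:**
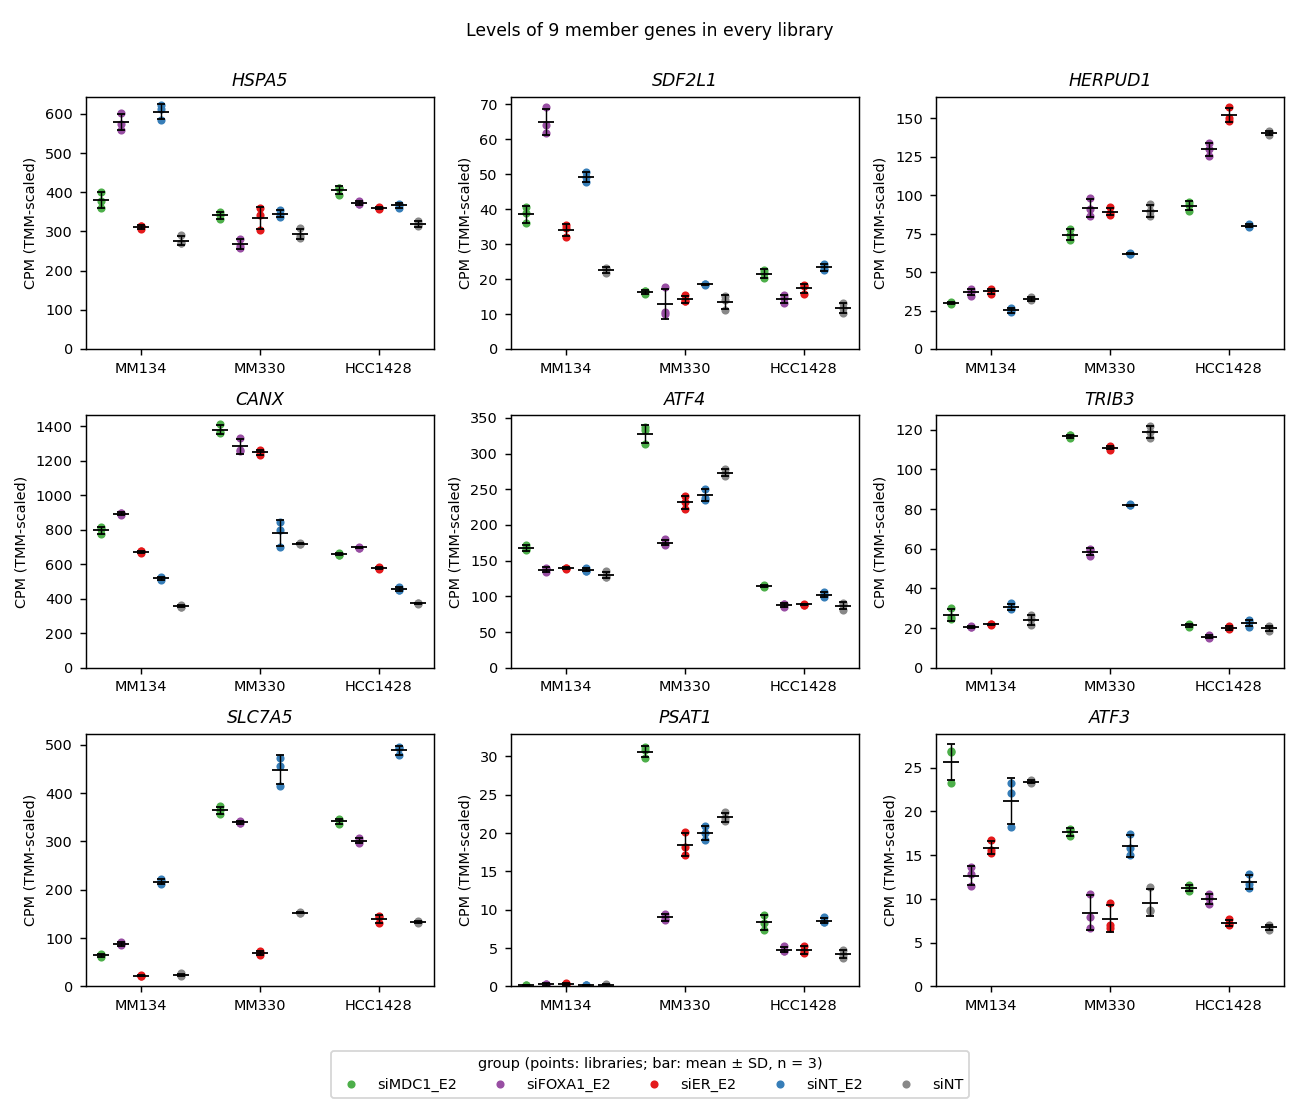
Level of 9 member genes (CPM, vertical axis of each panel) in every library, by cell line and by group from left to right siMDC1_E2, siFOXA1_E2, siER_E2, siNT_E2 and siNT. Points are single libraries, 3 per group. HERPUD1 is lowest in siNT_E2 in every line, CANX is higher in every knockdown group than in siNT_E2 and siNT, and SLC7A5 is highest in siNT_E2.

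HSPA5, the chaperone BiP that holds the sensors inactive until misfolded proteins draw it away, showed how the lines differed. In MM134, HSPA5 was at 315, 307 and 314 CPM in siER_E2, 560.1, 575 and 603 in siFOXA1_E2, 361, 378 and 401 in siMDC1_E2, 583, 622 and 612 in siNT_E2 and 291, 269.9 and 270.0 in siNT. The siNT_E2 and siFOXA1_E2 libraries formed a high set that did not overlap the siER_E2, siMDC1_E2 or siNT libraries. In MM330, HSPA5 was at 305, 359 and 342 CPM in siER_E2, 281, 263 and 258 in siFOXA1_E2, 350.0, 332 and 341 in siMDC1_E2, 344, 354 and 336 in siNT_E2 and 309, 288 and 284 in siNT. There the siFOXA1_E2 libraries were lowest, and the siER_E2 and siMDC1_E2 libraries overlapped those of siNT_E2. In HCC1428, HSPA5 was at 357, 359 and 363 CPM in siER_E2, 369, 379 and 370.0 in siFOXA1_E2, 393, 411 and 411 in siMDC1_E2, 359, 369 and 371 in siNT_E2 and 316, 326 and 313 in siNT. The siNT libraries were lowest, and the siMDC1_E2 libraries were highest without overlapping siNT_E2.

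Estradiol raised most folding genes in all 3 lines, with the largest size in MM134 (the first comparison, siNT_E2 against siNT, which asks what the hormone does with no knockdown). In MM134, 14 of the 18 folding genes rose and 2 fell, against a background of 27.2% of all genes higher and 27.2% lower. In MM330, 10 of 18 rose and 2 fell, against 13.7% of genes higher and 12.6% lower. In HCC1428, 12 of 18 rose and 5 fell, against 29.1% higher and 25.7% lower. The median log2 fold change of the 18 genes was 0.58 in MM134, 0.24 in MM330 and 0.27 in HCC1428, while the median over all genes was -0.03 in MM134, -0.0044 in MM330 and -0.03 in HCC1428. The E2 comparison shares its siNT_E2 libraries with the knockdown comparisons of the same line.

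HSPA5 rose in every line with E2: 1.13 ± 0.04 in MM134 (adjusted p = 4.14e-16), 0.23 ± 0.05 in MM330 (adjusted p = 0.00335), 0.20 ± 0.03 in HCC1428 (adjusted p = 1.29e-05). The MM330 call had an adjusted p of 0.0502 among the libraries with the lower pseudogene share. SDF2L1, a cofactor of BiP, had 47.9, 50.5 and 49.1 CPM in siNT_E2 and 23.2, 21.7 and 22.8 in siNT of MM134, a log2 fold change of 1.12 ± 0.06, adjusted p = 1.52e-13. It had 22.6, 24.4 and 23.0 CPM in siNT_E2 and 13.2, 11.8 and 10.4 in siNT of HCC1428 (0.98 ± 0.09, adjusted p = 1.39e-08). The groups did not overlap in either line. In MM330 SDF2L1 had 18.4, 18.5 and 18.4 CPM in siNT_E2 and 14.1, 15.1 and 11.1 in siNT, and that call (0.45 ± 0.16, adjusted p = 0.0418) was lost when siNT replicate 1 or 3 or siNT_E2 replicate 1, 2 or 3 was left out, with adjusted p-values of 0.0724 to 0.188.

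The secreted folding factor MANF rose by a similar size in the lines: 0.67 in MM134, 0.50 in MM330 and 0.71 in HCC1428. The glucose-regulated HSP90 of the reticulum, HSP90B1, was at 0.82 in MM134, 0.28 in MM330 and 0.28 in HCC1428, and calreticulin (CALR) at 0.96 in MM134, 0.29 in MM330 and 0.28 in HCC1428, each called in all lines. So were the BiP co-chaperone DNAJB11 (0.68 in MM134, 0.33 in MM330 and 0.42 in HCC1428), the disulfide isomerases PDIA4 (0.61 in MM134, 0.32 in MM330 and 0.43 in HCC1428) and PDIA6 (0.72 in MM134, 0.17 in MM330 and 0.33 in HCC1428), the reticulum HSP70-like HYOU1 (0.54 in MM134, 0.24 in MM330 and 0.26 in HCC1428) and the disulfide-exchange factor CRELD2 (0.65 in MM134, 0.28 in MM330 and 0.49 in HCC1428). The CRELD2 call in MM330 had an adjusted p of 0.0567 with the lower-share libraries alone. In all, 10 of the 18 folding genes were called higher in all 3 lines. Among all 14933 genes tested in every line, 8.36% were higher in all 3 and 6.56% lower in all 3. The isomerase PDIA3 rose in MM134 and HCC1428 (0.52 and 0.17) and was at 0.09 in MM330, uncalled.

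HERPUD1, which organises the disposal of misfolded proteins at the reticulum membrane, went the other way. In MM134 it was at 35.8, 38.8 and 37.7 CPM in siER_E2, 34.7, 37.2 and 39.0 in siFOXA1_E2, 28.9, 30.2 and 29.8 in siMDC1_E2, 26.9, 25.1 and 23.8 in siNT_E2 and 32.2, 34.0 and 31.6 in siNT. In MM330 it was at 87.2, 92.0 and 88.6 CPM in siER_E2, 98.1, 86.4 and 91.2 in siFOXA1_E2, 73.7, 78.1 and 71.0 in siMDC1_E2, 62.5, 61.8 and 61.6 in siNT_E2 and 89.4, 86.3 and 93.9 in siNT. In HCC1428 it was at 157, 148 and 149.96 CPM in siER_E2, 134, 129.96 and 126 in siFOXA1_E2, 93.4, 95.7 and 89.8 in siMDC1_E2, 79.5, 79.7 and 81.2 in siNT_E2 and 141, 142 and 139 in siNT. In each line the 3 siNT_E2 libraries were the lowest of all 15, with no overlap with any other group. The log2 fold change with E2 was -0.37 ± 0.06 in MM134 (adjusted p = 9.52e-06), -0.54 ± 0.05 in MM330 (adjusted p = 4.66e-07), -0.81 ± 0.04 in HCC1428 (adjusted p = 6.21e-13). HERPUD1 was the folding-arm member called lower with E2 in all 3 lines.

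Other disposal genes split by line. SEL1L, the scaffold of the HRD1 ubiquitin ligase, fell with E2 in HCC1428 (-0.82 ± 0.04, adjusted p = 2.90e-12) and in MM330 (-0.24 ± 0.04, adjusted p = 2.40e-04), and was at -0.04 in MM134, uncalled. EDEM1, which removes mannose from doomed glycoproteins, rose in MM134 (0.42 ± 0.06, adjusted p = 3.12e-06) and fell in HCC1428 (-0.54 ± 0.06, adjusted p = 8.98e-08). DNAJB9, a co-chaperone that restrains IRE1, was at 0.27 in MM330, uncalled, and fell in HCC1428 (-0.34 ± 0.11, adjusted p = 0.0129, or 0.0515 without siNT_E2 replicate 2). It fell more in MM134, with 40.2, 37.7 and 36.9 CPM in siNT_E2 and 62.6, 56.3 and 60.3 in siNT (-0.64 ± 0.05, adjusted p = 2.13e-10). SYVN1, the HRD1 ligase itself, was at 0.07 in MM134, -0.11 in MM330 and -0.14 in HCC1428, with a call in HCC1428 alone of the 3 lines. DNAJC3, a luminal co-chaperone, was called in MM134 (0.16), and that call ended when siNT replicate 1 was left out (adjusted p = 0.0894). CANX, the membrane lectin chaperone calnexin, rose in MM134 (0.54 ± 0.03, adjusted p = 1.44e-13) and HCC1428 (0.29 ± 0.03, adjusted p = 3.03e-08) and was at 0.12 in MM330, uncalled.

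The folding genes were also read by their promoter letters. In HCC1428 the 9 genes with an ERSE or ERSE-II (8 rose, 1 fell) had a median log2 fold change of 0.28, and the 8 genes with neither (3 rose, 4 fell) had -0.08. In MM134 the medians were 0.72 for the 9 genes and 0.29 for the 8, and in MM330 0.24 and 0.18. The gene with an element that fell was HERPUD1 in each line. These are counts over small sets of genes, with no test.

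**Figure D2:**
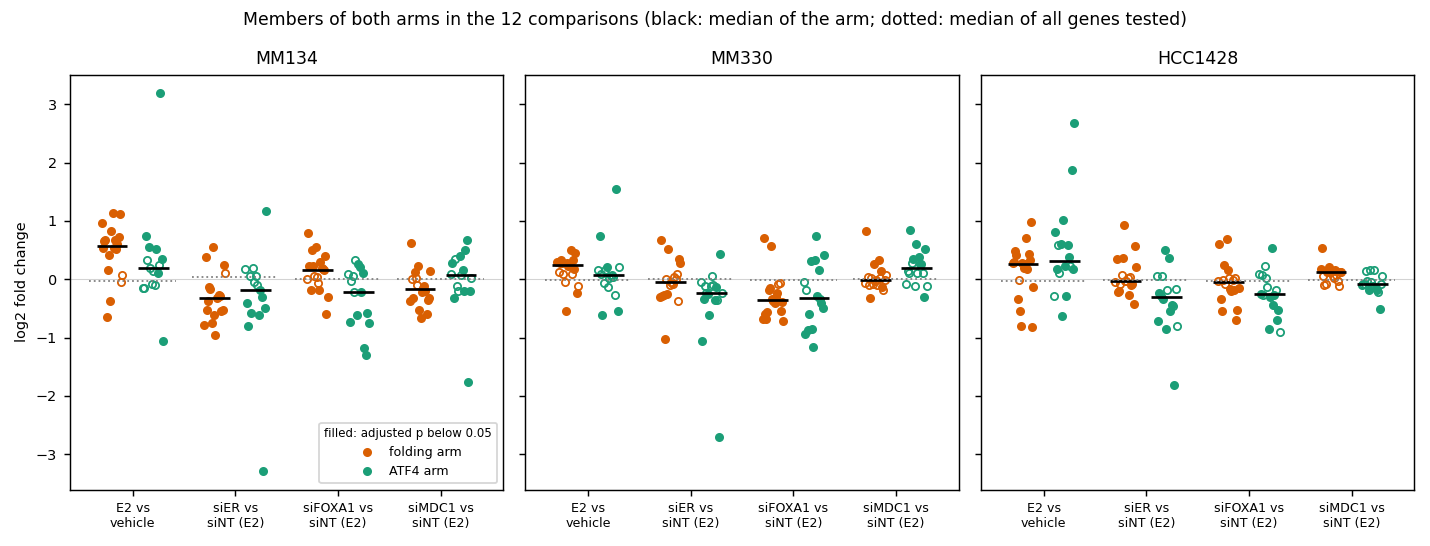
Log2 fold change (vertical axis) of each tested folding-arm and ATF4-arm member in the 12 comparisons, by cell line. Each point is 1 gene. For E2 the folding-arm medians are 0.58 in MM134, 0.24 in MM330 and 0.27 in HCC1428, while for siFOXA1 they are 0.16, -0.35 and -0.05.

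The 4 sensors and factors ranged from -0.38 to 0.24 on the log2 scale with E2, over all lines. ATF4, the translation-controlled factor that names the second arm, was at 140.3, 138 and 140.0 CPM in siER_E2, 134, 139 and 140.0 in siFOXA1_E2, 167, 165 and 172 in siMDC1_E2, 136, 136 and 140.3 in siNT_E2 and 135, 127 and 127 in siNT in MM134. In MM330 ATF4 was at 240.5, 232 and 222 CPM in siER_E2, 179.8, 174 and 172 in siFOXA1_E2, 337, 333 and 313 in siMDC1_E2, 238, 250.9 and 235 in siNT_E2 and 273, 268 and 278 in siNT. In HCC1428 ATF4 was at 89.1, 88.5 and 88.3 CPM in siER_E2, 89.5, 85.1 and 88.6 in siFOXA1_E2, 114, 116 and 113 in siMDC1_E2, 102, 106 and 99.1 in siNT_E2 and 91.0, 88.1 and 81.2 in siNT. In siNT_E2 against siNT the MM330 libraries were lower without overlap and the HCC1428 libraries higher without overlap. ATF4 fell with E2 in MM330 (-0.18 ± 0.04, adjusted p = 0.00292) and rose in HCC1428 (0.24 ± 0.04, adjusted p = 6.72e-05). Its MM134 call (0.08 ± 0.03, adjusted p = 0.0312) was lost without siNT_E2 replicate 1 or 3 or siNT replicate 2 or 3, with adjusted p-values of 0.0543 to 0.131. The kinase IRE1 (ERN1) fell in HCC1428 (-0.28 ± 0.05, adjusted p = 1.13e-04). Its MM134 call (-0.24) was lost without siNT_E2 replicate 1 or 2 or siNT replicate 3, with adjusted p-values of 0.0572 to 0.108. ATF6 fell in HCC1428 (-0.38 ± 0.04, adjusted p = 3.24e-07) and was uncalled elsewhere. The kinase PERK (EIF2AK3) fell in MM134 (-0.19 ± 0.05, adjusted p = 0.00155). In HCC1428 it was higher (0.19), a call lost with the lower-share libraries alone (adjusted p = 0.0902).

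With E2 most ATF4-arm genes rose in HCC1428 but not in the lobular lines. In MM134 6 of 15 tested genes rose and 1 fell, and in MM330 3 of 16 rose and 2 fell. In HCC1428 10 of 16 rose and 2 fell. Set against the same background shares, the MM330 counts lay near them. SLC7A5, the LAT1 transporter of large neutral amino acids, had the largest change among those called at 10 CPM or more in each line. In MM134 SLC7A5 was at 22.1, 20.8 and 23.8 CPM in siER_E2, 85.2, 87.6 and 92.6 in siFOXA1_E2, 61.4, 65.3 and 66.1 in siMDC1_E2, 212, 222 and 217 in siNT_E2 and 26.8, 22.8 and 21.9 in siNT. In MM330 it was at 72.8, 69.0 and 64.9 CPM in siER_E2, 343, 337 and 338 in siFOXA1_E2, 365, 373 and 357 in siMDC1_E2, 415, 457 and 473 in siNT_E2 and 154, 152 and 152 in siNT. In HCC1428 it was at 131, 143 and 145 CPM in siER_E2, 300.5, 307 and 298 in siFOXA1_E2, 346, 336 and 344 in siMDC1_E2, 478, 496 and 493 in siNT_E2 and 135, 134 and 132 in siNT. The siNT_E2 libraries were the highest of every line and overlapped no other group. The log2 fold change with E2 was 3.19 ± 0.06 in MM134 (adjusted p = 3.77e-21), 1.56 ± 0.05 in MM330 (adjusted p = 3.19e-13), 1.87 ± 0.04 in HCC1428 (adjusted p = 5.50e-18), and no other ATF4-arm gene was called higher in all 3 lines. Its partner chain SLC3A2 was at 0.12 in MM134, 0.04 in MM330 and 0.39 in HCC1428, called in HCC1428 and in MM134, where the call ended without siNT_E2 replicate 1 or 2 or siNT replicate 3 (adjusted p = 0.0594, 0.0726 and 0.170).

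TRIB3, a pseudokinase that feeds back on ATF4, moved in opposite directions in the lobular lines. In MM134 TRIB3 was at 21.49, 21.9 and 22.3 CPM in siER_E2, 20.3, 21.2 and 20.3 in siFOXA1_E2, 24.5, 25.5 and 29.9 in siMDC1_E2, 29.5, 30.3 and 32.4 in siNT_E2 and 26.4, 24.3 and 21.6 in siNT. In MM330 TRIB3 was at 112, 110.0 and 111 CPM in siER_E2, 59.3, 59.9 and 56.5 in siFOXA1_E2, 117, 117 and 116 in siMDC1_E2, 82.3, 81.8 and 81.8 in siNT_E2 and 122, 116 and 119 in siNT. In HCC1428 TRIB3 was at 19.98, 19.3 and 21.2 CPM in siER_E2, 14.8, 16.2 and 15.6 in siFOXA1_E2, 20.4, 21.4 and 22.2 in siMDC1_E2, 20.7, 22.8 and 24.0 in siNT_E2 and 20.96, 20.2 and 18.5 in siNT. With E2 the MM134 libraries were higher and the MM330 libraries lower than siNT, in each case without overlap, while the HCC1428 groups overlapped. TRIB3 rose in MM134 (0.35 ± 0.07, adjusted p = 2.87e-04) and fell in MM330 (-0.54 ± 0.03, adjusted p = 3.49e-09). The HCC1428 call (0.18 ± 0.07, adjusted p = 0.0355) was lost without siNT replicate 2 or 3 or siNT_E2 replicate 3 or 4, with adjusted p-values of 0.0563 to 0.322.

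DDIT3, the pro-death factor CHOP that usually accompanies lasting stress, stayed low. In MM134 DDIT3 was at 5.18, 6.54 and 6.32 CPM in siER_E2, 6.44, 8.33 and 8.42 in siFOXA1_E2, 8.07, 8.43 and 8.501 in siMDC1_E2, 8.998, 8.57 and 9.42 in siNT_E2 and 5.01, 7.06 and 6.32 in siNT. In MM330 DDIT3 was at 12.3, 15.5 and 11.2 CPM in siER_E2, 9.08, 10.3 and 10.8 in siFOXA1_E2, 18.2, 19.9 and 17.6 in siMDC1_E2, 14.3, 16.6 and 15.2 in siNT_E2 and 16.3, 16.3 and 15.5 in siNT. In HCC1428 DDIT3 was at 8.68, 8.30 and 10.8 CPM in siER_E2, 11.1, 9.69 and 10.6 in siFOXA1_E2, 7.91, 10.4 and 8.08 in siMDC1_E2, 9.48, 8.75 and 8.65 in siNT_E2 and 8.40, 7.81 and 8.67 in siNT. The siNT_E2 libraries of MM134 were above those of siNT without overlap, while in the other lines these groups overlapped. DDIT3 rose with E2 in MM134 (0.55 ± 0.13, adjusted p = 0.00100) and was uncalled in MM330 (-0.07) and HCC1428 (0.11). Its exons share 27.2% of their bases with MARS on the opposite strand, and whether the deposited counting used strand is not given in the sources used here, so its level is uncertain.

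ASNS, the asparagine synthetase that is a classic ATF4 target, was close to the lower limit of these libraries. In MM134 ASNS was at 3.24, 2.27 and 2.22 CPM in siER_E2, 2.67, 2.28 and 2.31 in siFOXA1_E2, 2.66, 1.99 and 2.62 in siMDC1_E2, 2.29, 2.18 and 2.36 in siNT_E2 and 3.02, 2.05 and 2.52 in siNT. In MM330 ASNS was at 3.43, 2.03 and 2.44 CPM in siER_E2, 3.15, 2.38 and 2.41 in siFOXA1_E2, 2.47, 2.62 and 2.62 in siMDC1_E2, 2.56, 2.75 and 2.84 in siNT_E2 and 2.50, 2.42 and 2.36 in siNT. In HCC1428 ASNS was at 1.47, 1.41 and 0.974 CPM in siER_E2, 1.57, 1.33 and 1.06 in siFOXA1_E2, 1.02, 1.17 and 1.29 in siMDC1_E2, 1.16, 1.38 and 1.19 in siNT_E2 and 2.27, 1.21 and 1.04 in siNT. The siNT_E2 and siNT libraries overlapped in MM134 and HCC1428, and in MM330 those of siNT_E2 were slightly higher without overlap. ASNS was called in 0 of the 30 within-line comparisons, with 0 at an unadjusted p under 0.05 in edgeR and 0 called by DESeq2. In the annotation 44.6% of its exon bases are shared with AC079781.5 on the same strand, so its counts may be split between these genes and its level is uncertain.

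The other ATF4-arm genes gave a mixed picture with E2. CEBPB, a partner factor of ATF4, rose in MM134 (0.75 ± 0.07, adjusted p = 6.03e-09). SHMT2, the mitochondrial serine enzyme, rose in MM134 (0.52) and HCC1428 (0.59). ATF3, an early stress factor, rose in MM330 (0.74 ± 0.15, adjusted p = 0.00155) and HCC1428 (0.81 ± 0.08, adjusted p = 7.92e-08) and was at -0.15 in MM134, uncalled. In HCC1428 the serine enzymes PHGDH (0.60 ± 0.05, adjusted p = 2.36e-09) and PSAT1 (1.02 ± 0.12, adjusted p = 5.73e-07) rose. PPP1R15A, the GADD34 subunit that restores protein synthesis, fell there (-0.62 ± 0.07, adjusted p = 1.49e-07), as did SESN2, a sestrin that senses leucine (-0.29 ± 0.06, adjusted p = 4.29e-04). VLDLR fell in MM134 (-1.05 ± 0.13, adjusted p = 4.96e-07) and had 0.638, 0.259 and 0.454 CPM in siNT_E2 and 0.0666, 0.0710 and 0.0672 in siNT of HCC1428. That fitted change (2.68 ± 0.63, adjusted p = 0.00136) is higher than that of SLC7A5 but rests on 2 counts in each siNT library, and the call ended with the lower-share libraries alone (adjusted p = 0.0727). CHAC1, which degrades glutathione, the cystine transporter SLC7A11 and the phosphoserine phosphatase PSPH had no E2 call that held in every alternative fit. Of the 28 further folding genes on a list of the same pathway, 16 rose and 6 fell in MM134, 4 rose and 5 fell of 27 tested in MM330, and 13 rose and 6 fell in HCC1428. Of its 32 further ATF4 genes, 20 rose and 5 fell of 30 tested in MM134, 7 rose and 5 fell of 31 in MM330, and 16 rose and 8 fell of 32 in HCC1428. Against the same shares of all genes (27.2% higher and 27.2% lower in MM134, 13.7% and 12.6% in MM330, 29.1% and 25.7% in HCC1428), the MM330 counts of the folding list lay near the background. With the lower-share libraries alone the E2 calls of CHAC1, PPP1R15A and SDF2L1 in MM330 and of CEBPB in HCC1428 also ended. XBP1, the factor spliced by IRE1, rose in every line (0.88 in MM134, 0.61 in MM330 and 0.39 in HCC1428), and DDIT4, an inhibitor of mTOR signalling, fell in every line (-1.34 in MM134, -1.41 in MM330 and -1.42 in HCC1428).

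**Figure D3:**
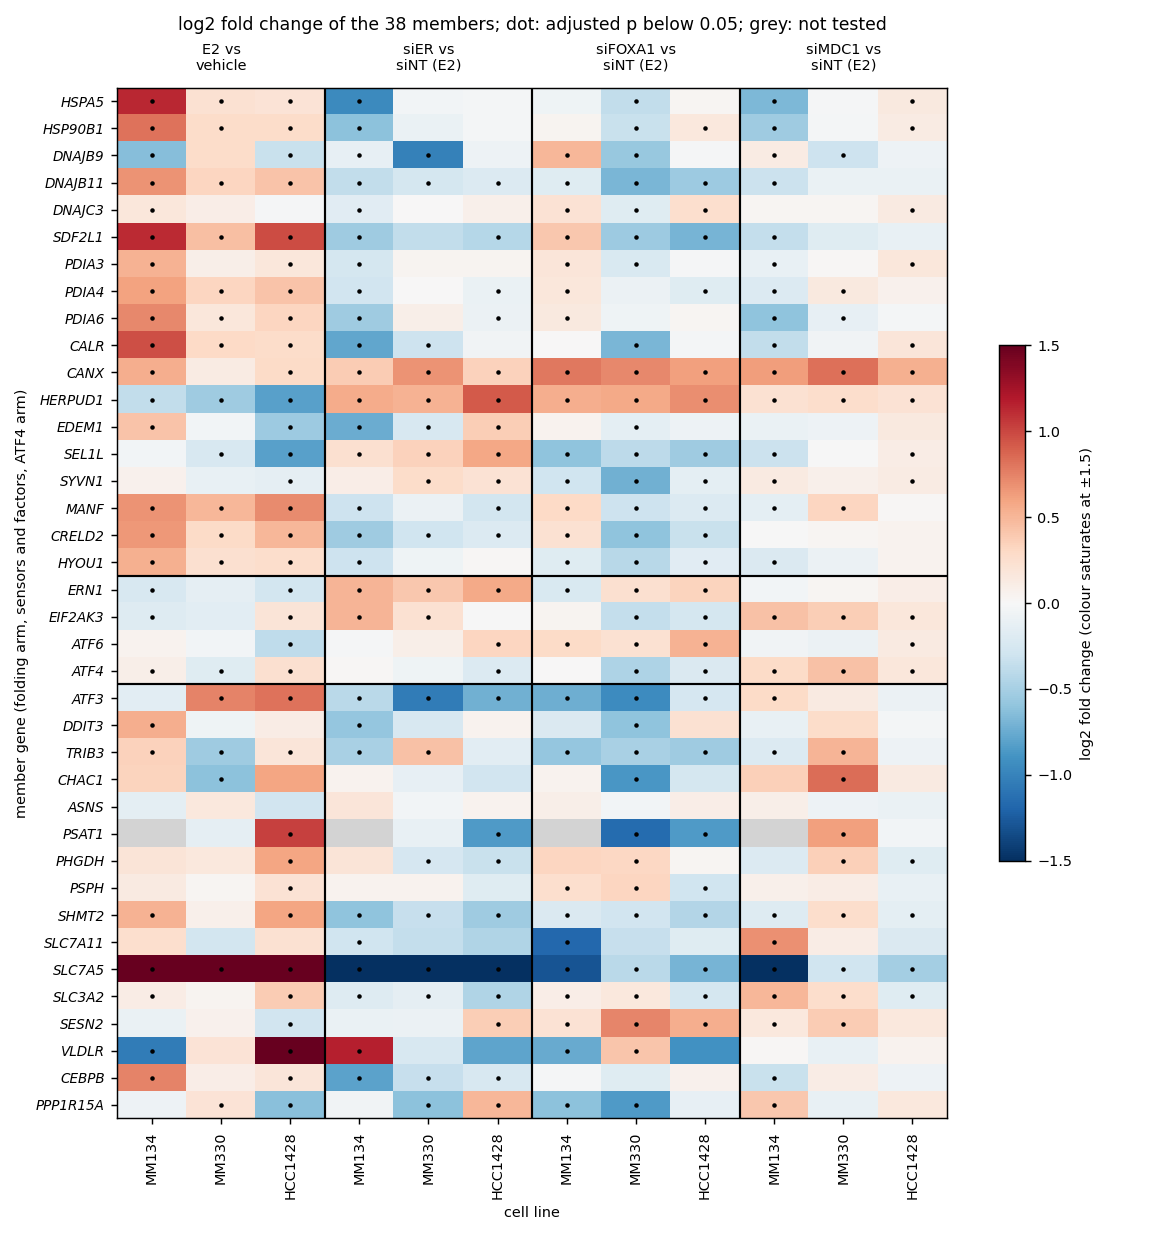
Log2 fold change (colour, saturating at ±1.5) of the 38 members (rows, by arm) in the 12 comparisons (columns, by knockdown or E2 and by cell line). Dots mark an adjusted p below 0.05 and grey marks PSAT1 in MM134, which was not tested. SLC7A5 is at 3.19 in the E2 comparison of MM134 and at -3.28 after siER in the same line.

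Knockdown of the estrogen receptor under E2 (siER_E2 against siNT_E2) lowered most folding genes in MM134, while in the other lines the counts lay closer to the shares of all genes, and in HCC1428 near them. In MM134 14 of 18 folding genes fell and 3 rose, against a background of 27.9% of genes lower and 29.3% higher. In MM330 5 fell and 4 rose, against 17.4% lower and 15.1% higher. In HCC1428 6 fell and 5 rose, against 28.7% lower and 22.5% higher. Of those 6, PDIA6 lost its call with RLE scaling, no low-count filter, the replicate block and DESeq2 (adjusted p = 0.0814 to 0.126). PDIA4 lost its call with RLE scaling (adjusted p = 0.0573). HSPA5 fell in MM134 (-0.96 ± 0.04, adjusted p = 5.66e-15) and was at -0.04 in MM330 and -0.03 in HCC1428, both uncalled. CALR fell in MM134 (-0.78 ± 0.03, adjusted p = 1.61e-14) and MM330 (-0.31 ± 0.04, adjusted p = 1.59e-05), and HSP90B1 fell in MM134 (-0.61 ± 0.04, adjusted p = 2.15e-12). EDEM1 fell in MM134 (-0.75 ± 0.06, adjusted p = 6.09e-10) and MM330 (-0.25 ± 0.05, adjusted p = 0.00158) and rose in HCC1428 (0.37 ± 0.06, adjusted p = 1.40e-05).

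After siER the largest folding-arm decrease of MM330 was that of DNAJB9, with 7.25, 7.15 and 6.99 CPM in siER_E2 and 15.01, 13.2 and 15.03 in siNT_E2 (-1.02 ± 0.10, adjusted p = 6.57e-07). These groups did not overlap, and the siNT libraries of that line, at 13.5, 11.7 and 10.7 CPM, were also above siER_E2. HERPUD1 rose in all lines: 0.56 ± 0.06 in MM134 (adjusted p = 1.53e-08), 0.53 ± 0.05 in MM330 (adjusted p = 4.12e-07), 0.92 ± 0.04 in HCC1428 (adjusted p = 1.61e-13). SEL1L also rose in all lines (0.24 in MM134, 0.35 in MM330 and 0.58 in HCC1428), as did ERN1 among the sensors (0.51 in MM134, 0.40 in MM330 and 0.56 in HCC1428). EIF2AK3 rose in MM134 (0.51 ± 0.05, adjusted p = 2.44e-09). Its MM330 call (0.23) was lost without siER_E2 replicate 2 or 3 or siNT_E2 replicate 1 or 3, with adjusted p-values of 0.0563 to 0.117.

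In the ATF4 arm 8 of 15 tested genes fell and 1 rose in MM134, 7 of 16 fell and 1 rose in MM330, and 7 of 16 fell and 2 rose in HCC1428 after siER, against 27.9%, 17.4% and 28.7% of all genes lower and 29.3%, 15.1% and 22.5% higher in these lines. SLC7A5 fell most in each line: -3.28 ± 0.06 in MM134 (adjusted p = 3.00e-21), -2.70 ± 0.05 in MM330 (adjusted p = 2.06e-15), -1.81 ± 0.04 in HCC1428 (adjusted p = 5.19e-17). SHMT2 (-0.61 in MM134, -0.35 in MM330 and -0.54 in HCC1428) and ATF3 (-0.41 in MM134, -1.05 in MM330 and -0.72 in HCC1428) fell in all lines. CEBPB fell too (-0.80 in MM134, -0.34 in MM330 and -0.24 in HCC1428), with an adjusted p of 0.0767 in MM330 when the lower-share libraries were used alone. TRIB3 fell in MM134 (-0.49 ± 0.07, adjusted p = 5.22e-06) and rose in MM330 (0.44 ± 0.03, adjusted p = 3.29e-08). PPP1R15A fell in MM330 (-0.62 ± 0.07, adjusted p = 1.73e-06) and rose in HCC1428 (0.50 ± 0.07, adjusted p = 3.13e-06). VLDLR rose in MM134 (1.16 ± 0.13, adjusted p = 9.43e-08), where it had 7.14, 7.30 and 7.54 CPM in siER_E2 and 2.91, 2.99 and 3.97 in siNT_E2. DDIT3 fell in MM134 (-0.58 ± 0.13, adjusted p = 5.23e-04). ATF4 itself fell in HCC1428 (-0.21 ± 0.04, adjusted p = 3.09e-04) and was uncalled in MM134 (0.02) and MM330 (-0.06). Among the further pathway genes, 14, 9 and 13 of the folding list fell in MM134, MM330 and HCC1428, and 6, 5 and 4 rose. In the further ATF4 list 20, 14 and 16 fell and 4, 5 and 4 rose. Against the shares of all genes just given, the MM330 counts that rose were near the background in both lists. With the lower-share libraries alone the siER calls of DNAJB9 and SLC7A11 in MM134 ended (adjusted p = 0.0967 and 0.0622), as did those of EIF2AK3 and PHGDH in MM330 and of MANF, PDIA4 and PDIA6 in HCC1428. XBP1 fell in all lines (-0.99 in MM134, -0.87 in MM330 and -0.44 in HCC1428) and DDIT4 rose in all lines (1.95 in MM134, 1.19 in MM330 and 1.93 in HCC1428).

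Across the lines, 4 members were called higher after siER in all 3 (CANX, HERPUD1, SEL1L and ERN1) and 7 lower (CRELD2, DNAJB11, ATF3, SHMT2, SLC7A5, SLC3A2 and CEBPB). Over all genes tested in every line, 7.39% were higher in all 3 and 10.3% lower. The CRELD2 call of HCC1428 was lost without siNT_E2 replicate 3 (adjusted p = 0.0745), and the SLC3A2 call of MM330 without siER_E2 replicate 1 (adjusted p = 0.105) or siNT_E2 replicate 3 (adjusted p = 0.113). The DNAJB11 call of HCC1428 was lost with the lower-share libraries alone (adjusted p = 0.0791).

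With FOXA1 knocked down under E2 (siFOXA1_E2 against siNT_E2), more folding genes rose than fell in MM134, and most fell in MM330. In MM134 10 of 18 folding genes rose and 4 fell, against a background of 27.9% higher and 28.5% lower. In MM330 14 of 18 fell and 2 rose, against 24.6% lower and 24.4% higher. In HCC1428 8 fell and 4 rose, against 29.5% lower and 24.1% higher. In 8 of the 18 genes the calls went in opposite directions between lines, and the share of all genes that did so was not computed. SDF2L1 rose in MM134, with 61.8, 64.1 and 69.1 CPM in siFOXA1_E2 and 47.9, 50.5 and 49.1 in siNT_E2 (0.40 ± 0.05, adjusted p = 4.27e-07). It fell in HCC1428, with 14.6, 13.0 and 15.4 CPM in siFOXA1_E2 and 22.6, 24.4 and 23.0 in siNT_E2 (-0.70 ± 0.09, adjusted p = 1.31e-06). Neither pair of groups overlapped. In MM330 SDF2L1 had 17.8, 9.97 and 10.7 CPM in siFOXA1_E2, where 1 library lay close to the siNT_E2 libraries, and the call (-0.54 ± 0.16, adjusted p = 0.00968) was lost without siFOXA1_E2 replicate 2 (adjusted p = 0.0531) or 3 (adjusted p = 0.0557).

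In MM134 HSPA5 averaged 579 CPM in siFOXA1_E2 and 606 in siNT_E2, and CALR averaged 1158 and 1152, both uncalled. In MM330, HSPA5 fell after siFOXA1 (-0.37 ± 0.05, adjusted p = 2.38e-05), and CALR fell more (-0.68 ± 0.04, adjusted p = 7.91e-10). SYVN1 and DNAJB11 fell there by similar sizes (-0.72 ± 0.04, adjusted p = 9.40e-10; -0.68 ± 0.06, adjusted p = 1.61e-07). SYVN1 had 36.6, 38.9 and 37.3 CPM in siFOXA1_E2 and 63.6, 63.3 and 58.5 in siNT_E2 of that line, without overlap. SEL1L, the partner of SYVN1, fell in every line: -0.60 ± 0.04 in MM134 (adjusted p = 2.18e-11), -0.40 ± 0.04 in MM330 (adjusted p = 3.69e-07), -0.53 ± 0.04 in HCC1428 (adjusted p = 3.49e-09). Its siFOXA1_E2 libraries were the lowest of all 5 groups in each line. HERPUD1 rose in every line: 0.55 ± 0.06 in MM134 (adjusted p = 2.09e-08), 0.57 ± 0.05 in MM330 (adjusted p = 8.62e-08), 0.70 ± 0.04 in HCC1428 (adjusted p = 8.71e-12). Among the sensors, ATF6 rose in MM134 (0.29 ± 0.04, adjusted p = 4.72e-07) and HCC1428 (0.52 ± 0.04, adjusted p = 5.42e-09). In MM330 the ATF6 call (0.23) was lost without siFOXA1_E2 replicate 2 (adjusted p = 0.0906) or siNT_E2 replicate 2 (adjusted p = 0.0552). ERN1 rose in MM330 (0.24 ± 0.07, adjusted p = 0.00774) and HCC1428 (0.33 ± 0.05, adjusted p = 1.88e-05). It was called lower in MM134 (-0.23 ± 0.09, adjusted p = 0.0271), a call lost with the lower-share libraries alone (adjusted p = 0.0745) and without siFOXA1_E2 replicate 1 or 2 or siNT_E2 replicate 3 (adjusted p = 0.0730 to 0.0987). In turn EIF2AK3 fell in MM330 (-0.36) and HCC1428 (-0.26).

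ATF4 and several genes of its arm fell after siFOXA1. ATF4 was at -0.46 ± 0.04, adjusted p = 7.00e-08 in MM330, at -0.22 ± 0.04, adjusted p = 1.65e-04 in HCC1428 and at 0.00 in MM134, uncalled. In the ATF4 arm 7 of 15 genes fell and 3 rose in MM134, 8 of 16 fell and 5 rose in MM330, and 7 of 16 fell and 1 rose in HCC1428, against 28.5%, 24.6% and 29.5% of all genes lower and 27.9%, 24.4% and 24.1% higher in these lines. TRIB3 fell in all lines (-0.57 in MM134, -0.49 in MM330 and -0.53 in HCC1428), as did SLC7A5 (-1.29 in MM134, -0.40 in MM330 and -0.70 in HCC1428), SHMT2 (-0.22 in MM134, -0.29 in MM330 and -0.44 in HCC1428) and ATF3 (-0.73 in MM134, -0.94 in MM330 and -0.25 in HCC1428). The ATF3 call of HCC1428 was lost without siFOXA1_E2 replicate 2 (adjusted p = 0.0662) or siNT_E2 replicate 3 (adjusted p = 0.119). PSAT1 in MM330 had 9.46, 8.82 and 8.70 CPM in siFOXA1_E2 and 20.03, 20.9 and 19.1 in siNT_E2, the lowest group of that line (-1.16 ± 0.07, adjusted p = 9.51e-10). It also fell in HCC1428 (-0.85 ± 0.12, adjusted p = 7.00e-06). CHAC1 fell in MM330 (-0.88 ± 0.23, adjusted p = 0.00375) and DDIT3 fell there as well (-0.60 ± 0.11, adjusted p = 1.84e-04). In MM134 SLC7A11 fell (-1.17 ± 0.12, adjusted p = 2.05e-08), as did PPP1R15A (-0.61 ± 0.06, adjusted p = 8.41e-09). SESN2 rose in every line: 0.21 in MM134, 0.74 in MM330 and 0.54 in HCC1428. PHGDH rose in MM330 (0.31 ± 0.07, adjusted p = 9.06e-04), and PSPH rose in the lobular lines (0.26 in MM134, 0.32 in MM330) and fell in HCC1428 (-0.30).

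In all 3 lines, 4 members were called higher after siFOXA1 (CANX, HERPUD1, ATF6 and SESN2) and 8 lower (DNAJB11, SEL1L, SYVN1, HYOU1, ATF3, TRIB3, SHMT2 and SLC7A5), against 10.6% and 14.5% of genes tested in every line. The count of 4 higher was near the share of all genes. The SYVN1 call of HCC1428 was lost without siNT_E2 replicate 3 (adjusted p = 0.0645). Of the further folding genes 12, 20 and 12 fell in MM134, MM330 and HCC1428, and 8, 3 and 8 rose. Of the further ATF4 genes 17, 18 and 18 fell and 9, 7 and 8 rose. The counts that rose were near the shares of all genes, except that of the folding list in MM330, which was below. With the lower-share libraries alone the siFOXA1 calls of ATF6, SLC3A2 and VLDLR in MM330 and of MANF and SYVN1 in HCC1428 ended. XBP1 was at -1.61 in MM134, -1.42 in MM330 and -0.85 in HCC1428 and SSR1, a subunit of the translocon-associated complex, at -1.05 in MM134, -1.06 in MM330 and -0.93 in HCC1428, each lower in every line. DDIT4 rose in every line (1.98 in MM134, 2.45 in MM330 and 1.87 in HCC1428).

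MDC1 knockdown under E2 (siMDC1_E2 against siNT_E2) lowered most folding genes in MM134, changed few of them in MM330 and raised 9 of 18 in HCC1428. In MM134 11 of 18 folding genes fell and 4 rose, against a background of 25% of genes lower and 25.4% higher. In MM330 2 fell and 4 rose, against 10.4% lower and 10.4% higher, and the count that fell was near the share of all genes. In HCC1428 9 rose and 0 fell by edgeR, against 13.2% higher and 15.9% lower, and 0 were lower at an unadjusted p under 0.05 or by DESeq2. Of those 9, HSP90B1 lost its call without siNT_E2 replicate 2 (adjusted p = 0.0659). DNAJC3, SEL1L and SYVN1 lost theirs with several libraries left out in turn, at adjusted p-values up to 0.132, 0.182 and 0.0900. HSPA5 fell in MM134 (-0.67 ± 0.04, adjusted p = 2.69e-12) and rose in HCC1428 (0.14 ± 0.03, adjusted p = 0.00115). PDIA6 fell in MM134 (-0.60 ± 0.03, adjusted p = 1.79e-13), as did HSP90B1 (-0.53 ± 0.04, adjusted p = 3.15e-11). MANF rose in MM330 (0.33 ± 0.07, adjusted p = 0.00447).

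Calnexin (CANX) was the folding gene that rose most after siMDC1 in every line. In MM134 CANX was at 675, 679 and 668 CPM in siER_E2, 886, 898 and 901 in siFOXA1_E2, 774, 814 and 804 in siMDC1_E2, 526, 511 and 518 in siNT_E2 and 361, 354 and 351 in siNT. In MM330 CANX was at 1253, 1262 and 1235 CPM in siER_E2, 1333, 1255 and 1265 in siFOXA1_E2, 1411, 1368 and 1362 in siMDC1_E2, 846, 797 and 702 in siNT_E2 and 719.7, 716 and 722 in siNT. In HCC1428 CANX was at 587, 579 and 575 CPM in siER_E2, 695, 700.3 and 697 in siFOXA1_E2, 654, 667 and 656 in siMDC1_E2, 452, 449 and 468 in siNT_E2 and 369, 375 and 374 in siNT. Every knockdown library lay above every siNT_E2 and siNT library of its line. Against siNT_E2 the log2 fold change after siMDC1 was 0.62 ± 0.03 in MM134 (adjusted p = 1.38e-14), 0.82 ± 0.05 in MM330 (adjusted p = 9.09e-09), 0.53 ± 0.03 in HCC1428 (adjusted p = 1.37e-10). After siFOXA1 it was 0.79 ± 0.03 in MM134 (adjusted p = 1.33e-16), 0.72 ± 0.05 in MM330 (adjusted p = 3.79e-09), 0.61 ± 0.03 in HCC1428 (adjusted p = 9.05e-13), and after siER it was 0.38 ± 0.03 in MM134 (adjusted p = 4.57e-11), 0.68 ± 0.05 in MM330 (adjusted p = 1.34e-08), 0.35 ± 0.03 in HCC1428 (adjusted p = 3.39e-09). Against siNT, which had no E2, CANX was also higher after siER (0.92 in MM134, 0.80 in MM330 and 0.64 in HCC1428), after siFOXA1 (1.33 in MM134, 0.84 in MM330 and 0.90 in HCC1428) and after siMDC1 (1.17 in MM134, 0.94 in MM330 and 0.82 in HCC1428). These comparisons share their siNT_E2 or siNT libraries within a line.

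ATF4 and PERK rose after siMDC1 in every line. ATF4 rose in MM134 (0.29 ± 0.03, adjusted p = 8.50e-08), MM330 (0.44 ± 0.04, adjusted p = 6.66e-07) and HCC1428 (0.16 ± 0.04, adjusted p = 0.00446). The HCC1428 call of ATF4 was lost with the replicate block (0.13, adjusted p = 0.0570). The siMDC1_E2 libraries had the highest ATF4 of all groups in each line. EIF2AK3 also rose in every line: 0.44 ± 0.05 in MM134 (adjusted p = 4.03e-08), 0.37 ± 0.07 in MM330 (adjusted p = 0.00136), 0.17 ± 0.05 in HCC1428 (adjusted p = 0.00855). In the ATF4 arm 5 of 15 genes rose and 4 fell in MM134, 7 of 16 rose and 1 fell in MM330, and 0 of 16 rose and 4 fell in HCC1428. Of all genes 25.4%, 10.4% and 13.2% were higher and 25%, 10.4% and 15.9% lower in these lines, and the MM134 counts were near the background. In HCC1428 2 ATF4-arm genes were higher at an unadjusted p under 0.05 in edgeR and 0 were called higher by DESeq2. PSAT1 rose in MM330, with 29.8, 30.8 and 31.2 CPM in siMDC1_E2 and 20.03, 20.9 and 19.1 in siNT_E2 (0.61 ± 0.06, adjusted p = 3.13e-06). TRIB3 rose there (0.51 ± 0.03, adjusted p = 2.62e-08), as did PHGDH (0.35 ± 0.07, adjusted p = 8.20e-04). The MM330 call of CHAC1 (0.84) was lost without siNT_E2 replicate 3 (adjusted p = 0.0550). In MM134 SLC7A11 had 14.2, 16.1 and 12.8 CPM in siMDC1_E2 and 10.4, 8.18 and 8.13 in siNT_E2, without overlap (0.68 ± 0.11, adjusted p = 1.82e-05), and PPP1R15A rose (0.41 ± 0.06, adjusted p = 2.49e-06). SLC3A2 rose in MM134 (0.49 ± 0.04, adjusted p = 1.26e-09) and MM330 (0.27 ± 0.04, adjusted p = 1.90e-04), and its partner SLC7A5 fell in all lines: -1.76 ± 0.05 in MM134 (adjusted p = 1.54e-17), -0.30 ± 0.05 in MM330 (adjusted p = 1.38e-04), -0.52 ± 0.04 in HCC1428 (adjusted p = 4.68e-09).

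After siMDC1, 4 members were called higher in all 3 lines (CANX, HERPUD1, EIF2AK3 and ATF4) and 1 lower (SLC7A5), against 4.27% and 4.29% of genes tested in every line. The count of 1 lower was near the share of all genes. HERPUD1 was at 0.23 in MM134, 0.26 in MM330 and 0.21 in HCC1428. Of the further folding genes 14, 8 and 7 fell in MM134, MM330 and HCC1428, and 8, 4 and 7 rose. Of the further ATF4 genes 8, 14 and 7 rose and 14, 4 and 3 fell. The MM134 counts that rose were near the shares of all genes. With the lower-share libraries alone the siMDC1 calls of DNAJB9, PDIA4, PDIA6 and SESN2 in MM330 and of ATF6 and DNAJC3 in HCC1428 ended. DERL1, a channel protein of the disposal machinery, fell in every line (-0.88 in MM134, -0.72 in MM330 and -0.44 in HCC1428), and DDIT4 rose in every line (0.69 in MM134, 0.69 in MM330 and 0.73 in HCC1428).

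The size of a response was then compared between lines with an interaction term over all 45 libraries. The filter of that fit kept 21447 genes, including genes nearly absent from a compared line. Among the 38 members these were PSAT1 and PHGDH in MM134 and VLDLR in HCC1428. The background shares are over the same 21447 genes. For E2, 22 of the 38 members differed between MM134 and HCC1428 (background 26.5% of genes), among them 14 folding genes, all more positive in MM134. The HSPA5 response to E2 differed by 0.95 ± 0.07, adjusted p = 2.41e-15 on the log2 scale. For siER 25 members differed (background 24.5%), among them 13 folding genes, all more negative in MM134, with HSPA5 at -0.99 ± 0.07, adjusted p = 3.54e-15. For siFOXA1 22 differed (30.5%), and for siMDC1 13 differed (18.6%), among them 9 folding genes, all more negative in MM134. Between MM330 and HCC1428, 20 members differed for E2 (28.3%), 14 for siER (25.3%), 18 for siFOXA1 (22.2%) and 11 for siMDC1 (13.8%). For siFOXA1 9 folding genes differed, all more negative in MM330, with CALR at -0.68 ± 0.05, adjusted p = 3.02e-13. For siMDC1 6 ATF4-arm genes differed, all more positive in MM330, with TRIB3 at 0.59 ± 0.09, adjusted p = 3.20e-06. SLC7A5 differed from HCC1428 in MM134 for E2 (1.34 ± 0.08, adjusted p = 1.42e-17) and for siER (-1.53 ± 0.08, adjusted p = 1.20e-18).

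The knockdown groups were also set against siNT, from which they differ in both E2 and siRNA. With siER_E2 against siNT, 22 of 37 tested members were called in MM134 (background 32.3% of genes in either direction), 20 of 38 in MM330 (20.2%) and 19 of 38 in HCC1428 (21.2%). SLC7A5 was then at -0.10 in MM134 and 0.06 in HCC1428, both uncalled, and lower than siNT in MM330 (-1.15 ± 0.05, adjusted p = 9.46e-11). HSPA5 was slightly higher than siNT in every line (0.17 in MM134, 0.19 in MM330 and 0.17 in HCC1428), and HERPUD1 was at 0.19 in MM134, -0.01 in MM330 and 0.11 in HCC1428, uncalled in MM330. With siFOXA1_E2 against siNT, 34, 28 and 30 members were called in MM134, MM330 and HCC1428 (backgrounds 56.8%, 46.9% and 48.5%). HSPA5 was at 1.07 ± 0.04, adjusted p = 6.80e-16 in MM134, and SLC7A5 was higher in every line (1.89 in MM134, 1.15 in MM330 and 1.18 in HCC1428). With siMDC1_E2 against siNT, 31, 20 and 30 members were called (49.1%, 34.9% and 48.4%), and SLC7A5 was again higher in every line (1.43 in MM134, 1.26 in MM330 and 1.36 in HCC1428).

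**Figure D4:**
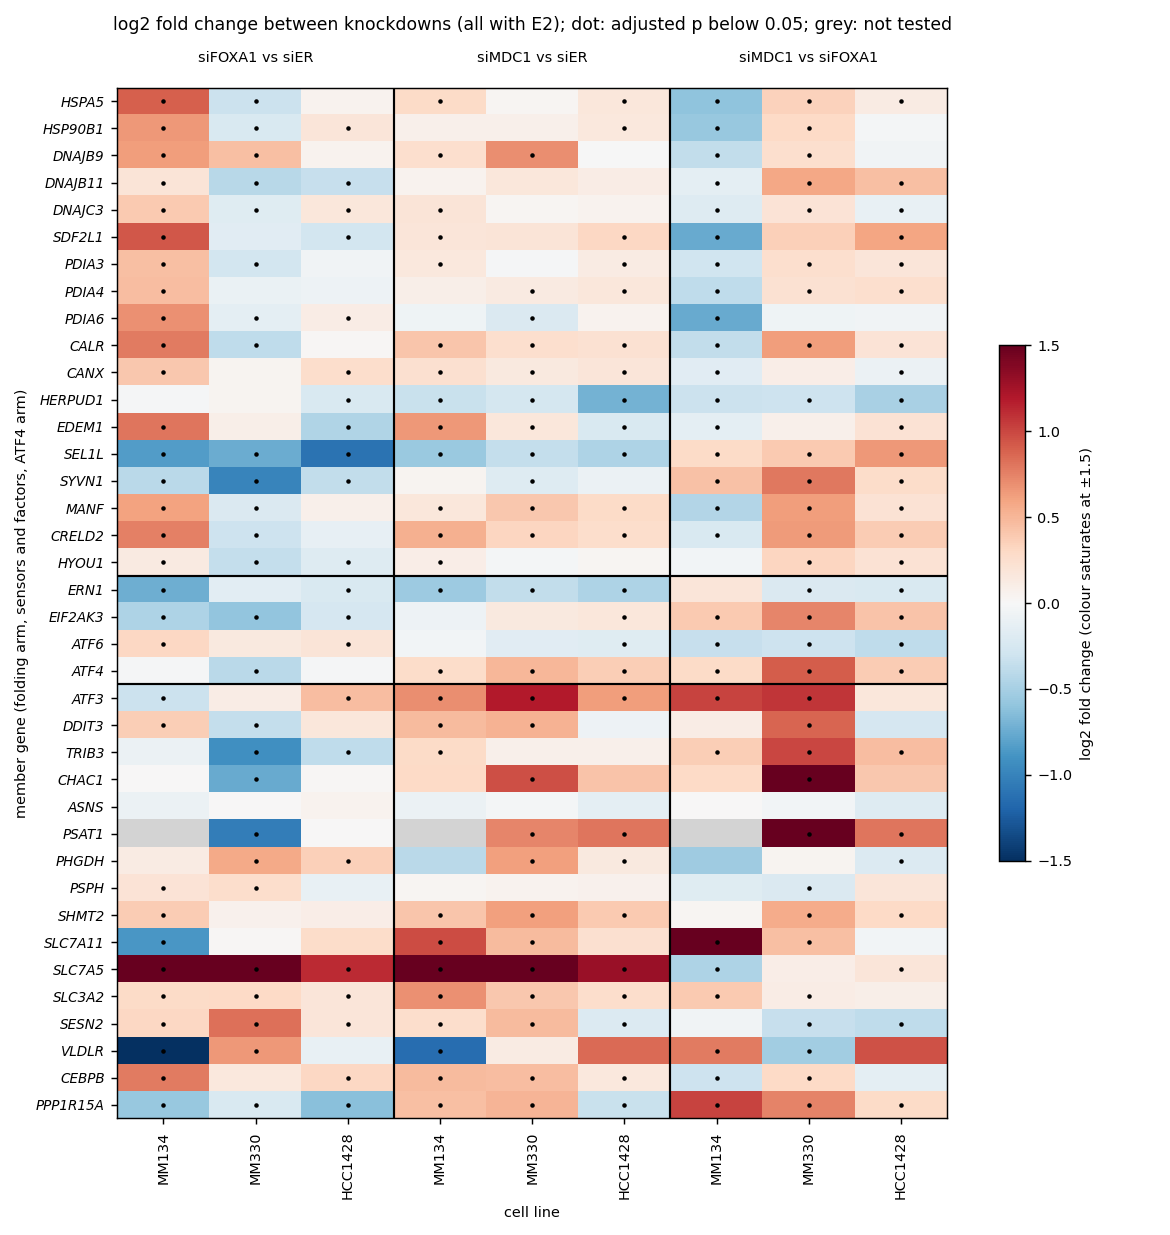
Log2 fold change (colour, saturating at ±1.5) of the 38 members (rows) between the knockdown groups (columns siFOXA1 against siER, siMDC1 against siER and siMDC1 against siFOXA1, by cell line), all with E2. Dots mark an adjusted p below 0.05 and grey marks PSAT1 in MM134, which was not tested. For siMDC1 against siFOXA1, HSPA5 is at -0.61 in MM134 and at 0.35 in MM330.

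The knockdowns also differed from each other. For siFOXA1_E2 against siER_E2, 31 of 37 members were called in MM134 (background 51.3%), 26 of 38 in MM330 (45.9%) and 22 of 38 in HCC1428 (42.9%). SEL1L was lower after siFOXA1 than after siER in every line: -0.84 ± 0.04 in MM134 (adjusted p = 7.96e-14), -0.75 ± 0.04 in MM330 (adjusted p = 1.67e-10), -1.10 ± 0.04 in HCC1428 (adjusted p = 9.58e-14). HSPA5 was higher after siFOXA1 than after siER in MM134 (0.89 ± 0.04, adjusted p = 1.64e-14) and lower in MM330 (-0.33 ± 0.05, adjusted p = 8.64e-05). For siMDC1_E2 against siER_E2, 26, 25 and 25 members were called (45.6%, 30.6% and 41.1%). ATF3 was higher after siMDC1 than after siER in every line (0.69 in MM134, 1.19 in MM330 and 0.63 in HCC1428), and HERPUD1 was lower (-0.34 in MM134, -0.27 in MM330 and -0.71 in HCC1428).

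For siMDC1_E2 against siFOXA1_E2, 28, 31 and 26 members were called in MM134, MM330 and HCC1428 (49.8%, 48.8% and 45.4%). ATF4 was higher after siMDC1 in every line: 0.29 ± 0.03 in MM134 (adjusted p = 8.15e-08), 0.90 ± 0.04 in MM330 (adjusted p = 2.70e-11), 0.38 ± 0.04 in HCC1428 (adjusted p = 2.60e-07). TRIB3 followed the same direction (0.37 in MM134, 1.00 in MM330 and 0.46 in HCC1428), with 117, 117 and 116 CPM in siMDC1_E2 and 59.3, 59.9 and 56.5 in siFOXA1_E2 of MM330. PSAT1 was higher after siMDC1 in MM330 (1.77 ± 0.07, adjusted p = 5.35e-12) and HCC1428 (0.80 ± 0.12, adjusted p = 1.70e-05). CHAC1 was higher in MM330 (1.72 ± 0.22, adjusted p = 6.28e-06), with 4.12, 4.79 and 4.05 CPM in siMDC1_E2 and 1.04, 1.68 and 1.21 in siFOXA1_E2. SLC7A11 was higher in MM134 (1.86 ± 0.12, adjusted p = 1.06e-11). The folding arm split between the lobular lines in this comparison, with 15 of 18 genes lower after siMDC1 in MM134 and 13 of 18 higher in MM330. These are counts in 1 direction, while the shares of all genes given for this comparison are for both directions together.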

How the data were processed

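Polyadenylated RNA was extracted with RNeasy, prepared with the Illumina Stranded mRNA Prep and sequenced on a NovaSEQ6000 with paired reads of 150 bases, per the labels' protocols. The submitters' processing notes name STAR 2.6.0a, limma and the build GRCh38 (hg38). For the counting tool and its strand setting nothing is given in the sources used here. The authors deposited raw counts per gene symbol (57353 rows, 45 libraries), and 0 columns were left unmatched. Gene types, exon lengths and overlaps came from GENCODE 29, and promoter windows from RefSeq. In R 4.3.3 with edgeR 4.0.16 the counts of each line (15 libraries, 5 groups) were filtered with filterByExpr, scaled by TMM and fitted by quasi-likelihood, with Benjamini-Hochberg adjustment over all genes. Differences between lines were interaction contrasts in one fit of the 45 libraries. The fits were tested on simulated data. Alternatives were RLE scaling, no filter, a replicate block, DESeq2 1.42.0, libraries of lower pseudogene share, and each library left out. Same-numbered libraries were not more alike by median correlation, and the main fits treat libraries as unpaired. Members, classes and lists were chosen with earlier results of these data known. Named were 6 fixed genes in every library (SLC7A5 and CANX are given so too, chosen after their values were seen), the 2 members of largest called change per class and comparison at 10 CPM or more, the member of smallest p per arm and difference, and up to 3 further pathway genes per comparison; other members are given so that each is accounted for. Exon overlaps with an opposite-strand gene (DDIT3 with MARS, PDIA6 with ATP6V1C2, 25.2% of its exon bases) or a same-strand gene (ASNS with AC079781.5, SYVN1 with FAU) make those levels uncertain.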

Additional observations from a re-analysis of the deposited data

Results flagged for a closer look

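The following responses differed between a lobular line and HCC1428 by an interaction term in edgeR, in the fit of all 45 libraries. They are the folding-arm and ATF4-arm members with the smallest p in each of the 8 differences. With E2, HSPA5 changed by 1.13 in MM134 and 0.20 in HCC1428, a difference of 0.95 ± 0.07, adjusted p = 2.41e-15. SLC7A5 changed by 3.19 and 1.87 in the same lines, a difference of 1.34 ± 0.08, adjusted p = 1.42e-17. After siER, HSPA5 was at -0.96 in MM134 and -0.03 in HCC1428 (-0.99 ± 0.07, adjusted p = 3.54e-15), and SLC7A5 at -3.28 and -1.81 (-1.53 ± 0.08, adjusted p = 1.20e-18). After siFOXA1, SDF2L1 was at 0.40 in MM134 and -0.70 in HCC1428 (1.06 ± 0.14, adjusted p = 7.20e-08), and SLC7A5 at -1.29 and -0.70 (-0.64 ± 0.07, adjusted p = 2.93e-09). After siMDC1, HSPA5 was at -0.67 in MM134 and 0.14 in HCC1428 (-0.81 ± 0.07, adjusted p = 1.20e-12), and SLC7A5 at -1.76 and -0.52 (-1.24 ± 0.07, adjusted p = 2.32e-16).

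In MM330 with E2, SEL1L was at -0.24 against -0.82 in HCC1428 (0.58 ± 0.06, adjusted p = 2.97e-10), and TRIB3 at -0.54 against 0.18 (-0.72 ± 0.09, adjusted p = 8.41e-09). After siER, EDEM1 was at -0.25 in MM330 and 0.37 in HCC1428 (-0.65 ± 0.08, adjusted p = 5.62e-09), and SLC7A5 at -2.70 and -1.81 (-0.92 ± 0.07, adjusted p = 4.58e-13). After siFOXA1, CALR was at -0.68 in MM330 and -0.03 in HCC1428 (-0.68 ± 0.05, adjusted p = 3.02e-13), and PPP1R15A at -0.85 and -0.13 (-0.76 ± 0.11, adjusted p = 3.75e-07). After siMDC1, CANX was at 0.82 in MM330 and 0.53 in HCC1428 (0.29 ± 0.05, adjusted p = 1.20e-04), and TRIB3 at 0.51 and -0.08 (0.59 ± 0.09, adjusted p = 3.20e-06). The part of the smaller ESR1 decrease of HCC1428 after siER (-1.004 against -3.12 in MM134 and -3.68 in MM330) in the siER differences was not tested.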

How the results depend on the processing

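The total counts of called members, both directions together, stayed within 1.5 times of those reported under RLE scaling, no low-count filter, the replicate block, DESeq2, the libraries of lower pseudogene share and each library left out, with these exceptions. For MM330 siER_E2 against siNT the count of 20 became 11 with the lower-share libraries, and 13 to 20 with a library left out. For the siMDC1 difference between MM330 and HCC1428 the count of 11 became 17 with DESeq2, and 8 to 13 with a library left out. With the lower-share libraries alone the count over all genes was 3092 in place of 4690 for MM330 E2, 2208 in place of 3710 for MM330 siMDC1_E2 against siNT_E2, and 1900 in place of 3604 for MM330 siER_E2 against siNT. It was 3571 in place of 5462 for MM330 siMDC1_E2 against siER_E2, 2176 in place of 3875 for HCC1428 siER_E2 against siNT, and 3595 in place of 5428 for the siER difference between MM330 and HCC1428. Fewer libraries entered those fits. Counts in 1 direction moved by over 1.5 times in 7 of 76 cases with the lower-share libraries, 17 of 552 with a library left out, 2 of 76 with the block and 1 of 76 each with RLE scaling, no filter and DESeq2. For MM330 siMDC1_E2 against siNT_E2 the members called lower were 1 in place of 3 without a filter and with the lower-share libraries. For MM330 siER_E2 against siNT 5 in place of 9 were higher and 6 in place of 11 lower with the lower-share libraries, and for HCC1428 1 in place of 3 lower. In the differences from HCC1428 those libraries gave 3 in place of 5 higher for siER and 6 in place of 10 lower for siFOXA1 in MM134. The 2 members more negative in MM330 for siMDC1 became 7 with RLE scaling, 4 with the block, 8 with DESeq2 and 1 with the lower-share libraries. Deviations from the group mean were correlated between libraries of different groups. The median for same-numbered pairs was -0.0040 in MM134, -0.016 in MM330 and -0.0094 in HCC1428. For other pairs it was 8.16e-05, 0.021 and -0.0028. In these lines 2 of 30, 7 of 30 and 8 of 26 same-numbered pairs correlated above 0.1, with highest values of 0.35, 0.62 and 0.56. Whether some libraries were paired cannot be told from these values. With the replicate block, 26 members were called for E2 and 28 for siER in MM134, and no total moved by over 1.5 times, while the 4 members lower in HCC1428 after siMDC1 became 2. In each of the 12 comparisons 2 to 8 members lost their call under some setting, and RLE scaling moved the median of all genes by -0.04 to 0.03.

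Among the genes named by rule, changes of direction occurred in uncalled values. PDIA6 after siER in HCC1428, called lower at -0.0888, was at 0.0291 with the lower-share libraries, where siER_E2 keeps 1 library. ATF4 after siFOXA1 in MM134 was at -0.0034 with RLE scaling, -0.0122 without a filter, -0.0031 with DESeq2 and -0.0141 to 0.0213 with a library left out. In HCC1428 DDIT3 with E2 was at -0.0397 and ASNS at 0.245 with the lower-share libraries, and DDIT3 after siMDC1 was at 0.0300. With the replicate block ASNS in HCC1428 was at -0.124 after siER and -0.0801 after siFOXA1. With a library left out ASNS in HCC1428 ranged from -0.491 to 0.140 for E2, -0.0645 to 0.215 for siER and -0.0493 to 0.231 for siFOXA1, and DDIT3 there from -0.166 to 0.0446 for siMDC1 and -0.0792 to 0.120 for siER. ASNS ranged from -0.284 to 1.64e-05 for E2 and -0.0220 to 0.282 for siER in MM134, and from -0.278 to 0.111 for siER and -0.181 to 0.0225 for siFOXA1 in MM330. HSPA5 ranged from -0.0923 to 0.0244 for siER and -0.0338 to 0.0043 for siMDC1 in MM330, and from -0.0435 to 0.0180 for siER in HCC1428. The cause was not tested. ASNS and CHAC1 lay near 1 to 5 CPM, and whether depth limits their calls was not tested.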

Other observations

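These genes of the further pathway lists were named by the same rule or chosen after their values were seen. STC2, a secreted glycoprotein, was at 3.13 in MM134, 1.00 in MM330 and -1.24 in HCC1428 with E2, so its direction in HCC1428 was opposite to that in the lobular lines (each called). CREB3L1, a reticulum membrane factor of the ATF6 kind, fell with E2 in every line (-0.80 in MM134, -0.81 in MM330 and -1.11 in HCC1428) and rose after siER (1.23 in MM134, 1.30 in MM330 and 0.98 in HCC1428) and after siMDC1 (1.37 in MM134, 0.89 in MM330 and 0.95 in HCC1428). GDF15, a stress-induced secreted factor, fell in MM330 after siFOXA1 (-2.15 ± 0.19, adjusted p = 8.07e-08) and after siMDC1 (-0.98 ± 0.18, adjusted p = 6.93e-04). In that line it also fell after siER (-1.09 ± 0.18, adjusted p = 1.42e-04) and rose with E2 (0.90 ± 0.18, adjusted p = 9.60e-04). KLHL24, an adaptor of a ubiquitin ligase, rose after siER in MM134 (1.85 ± 0.12, adjusted p = 7.76e-12) and HCC1428 (1.80 ± 0.06, adjusted p = 1.33e-14). It also rose after siFOXA1 in MM330 (1.60) and HCC1428 (1.69). In HCC1428 it rose after siMDC1 (0.80) and fell with E2 (-1.30). JDP2, a repressor that binds ATF family factors, rose after siMDC1 in MM134 (0.86 ± 0.09, adjusted p = 4.89e-08) and MM330 (0.80 ± 0.08, adjusted p = 2.78e-06). Its rise after siFOXA1 in MM134 was larger (1.58 ± 0.09, adjusted p = 8.13e-13).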
